A study of Arabidopsis thaliana with 4 samples.

Results

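Among the genes listed as changed between ndx1-4 and Col-0 seedlings of Arabidopsis thaliana, 49 of 1984 genes (2.47%) overlapped another listed gene on the opposite strand, and they formed 25 pairs. A gene belonged to this set when its interval shared at least 1 base with that of another listed gene on the same chromosome and the other strand. The rule used positions alone and no expression value. The mRNA-seq data come from 10-day-old seedlings, with 2 libraries of ndx1-4 and 2 libraries of Col-0. ndx1-4 is a single T-DNA insertion allele of the gene NODULIN HOMEOBOX (NDX) and Col-0 is the wild type. The labels number the libraries as replicates and do not say whether the seedlings were grown or pooled separately, so p-values measure only the spread between these libraries. Values are FPKM, which scale read numbers to transcript length and sequencing amount so that genes of unlike length are on 1 scale. NDX itself (AT4G03090) had 0.98 and 1.00 FPKM in ndx1-4, against 5.08 and 4.96 FPKM in Col-0, a difference of -1.60 ± 0.10 on the log2(FPKM + 1) scale (limma adjusted p = 4.76e-06), in the direction the labels give.

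Genes that overlap on opposite strands give RNAs that are complementary over the shared stretch, and such pairs are called natural antisense pairs. In plants, the transcripts of a pair can coexist without effect, or one can lower or raise the other through double-stranded RNA and small RNAs, through interference between the polymerases, or through chromatin at the shared promoter. NDX is known from earlier work on the flowering gene FLC, where it binds the antisense promoter and limits the antisense transcript COOLAIR. A library kit that does not mark strand, as the one named in the labels (TruSeq RNA v2), gives reads of the shared stretch that carry no sign of which partner they came from, so how such reads were divided between the partners was not tested. Levels of the partners of a pair are therefore given as the deposited estimates, and their order is least certain where most of a transcript is shared.

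The overlap at the start of a coding gene is shown for 4 pairs, because the same bases are exon of both partners and a read from them fits either gene. Each line runs 5′ to 3′ on the strand of the gene it names, and the capitals mark the start codon of the coding partner, which reads CAT on the opposite strand. The sequences are from the RefSeq TAIR10.1 assembly. In the pair at chr3:7676441-7676490 the coding gene is on the minus strand:
UGT71B6: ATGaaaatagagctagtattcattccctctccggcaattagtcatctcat
AT3G21781: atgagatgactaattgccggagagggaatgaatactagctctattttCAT
In the pair at chr5:19646576-19646625 the gene read from its start codon is also on the minus strand:
DIR1: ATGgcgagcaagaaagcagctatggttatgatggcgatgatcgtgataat
AT5G48480: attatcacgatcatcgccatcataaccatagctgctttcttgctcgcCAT
For the small heat shock protein gene at chr3:16984684-16984733 and the noncoding gene opposite to it the bases are:
HSP17.4: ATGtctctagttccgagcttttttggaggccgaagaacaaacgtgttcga
AT3G07365: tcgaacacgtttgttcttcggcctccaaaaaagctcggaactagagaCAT
At chr2:1481934-1481983 a calcium ion-binding protein gene faces a noncoding gene:
AT2G04280: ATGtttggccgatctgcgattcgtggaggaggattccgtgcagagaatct
AT2G04755: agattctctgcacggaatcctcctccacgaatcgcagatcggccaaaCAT
The first, second and last of these pairs differed in opposite directions between the genotypes, and in the HSP17.4 pair both partners were lower in ndx1-4.

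Of the 49 genes, 40 were annotated as protein coding and 9 as long noncoding RNA. In 17 pairs both partners were coding, in 7 pairs a noncoding gene lay opposite a coding one, and in 1 pair both were noncoding. In the 7 mixed pairs the coding gene is taken as sense and the noncoding gene as antisense, while in the others neither partner is marked as the antisense one. By position, 11 pairs met tail to tail (3′ ends overlapping), 3 met head to head (5′ ends overlapping), and in 11 pairs 1 gene lay within the interval of the other. The shared stretch ran from 8 to 1971 bases, with a median of 535, and all 25 pairs shared exon bases. In 5 of the pairs the annotation had bases that code for protein on both strands. The annotation of TAIR10.1 held 5298 opposite-strand pairs on chromosomes 1 to 5. Both partners were listed in 25 of them and 1 partner in 498, so that 470 listed genes (23.7%) overlapped some annotated gene on the other strand and most of their partners were not analysed here.

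All 49 overlapping genes passed the test (limma with Benjamini-Hochberg adjustment over all 1984 listed genes, adjusted p under 0.01), with 18 higher and 31 lower in ndx1-4. The background was 98.9% of listed genes called, 43.0% called higher and 55.9% called lower, because the authors deposited only genes they had called on the same 4 libraries. The test is therefore a recheck and no independent evidence, and a count of calls says nothing particular about the overlapping genes. The genotypes did not overlap in any of the 49 genes, beside 99.9% of all listed genes. The share higher in ndx1-4 was 36.7% among the 49 genes and 43.5% among the listed genes. Among noncoding genes 3 were higher and 6 lower, and among coding genes 15 were higher and 25 lower. The median absolute difference was 0.49 (log2(FPKM + 1)) for the 49 genes, beside 0.45 for all listed genes, a small gap beside the range of changes. Mean FPKM differed less than 1.5-fold in 29 genes, at least 1.5-fold in 20 and at least 2-fold in 13, the last 2 counts including 3 genes listed at 0 in both libraries of a genotype. Levels ran from 0.623 to 2698 FPKM as means over the 4 libraries.

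The calls leaned on having both libraries of a genotype. In each of the 4 fits with 1 library left out, many of the 49 genes lost their call. Such a fit leaves a single library in 1 genotype, and the share of all listed genes losing theirs is not given. The loss therefore says nothing particular about the overlapping genes. The direction of every gene and of every pair was kept in these 4 fits. This could not have come out otherwise, because the genotypes did not overlap in any of the 49 genes. In bulk seedlings, fewer cells of a type and less RNA per cell cannot be told apart.

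**Figure D1:**
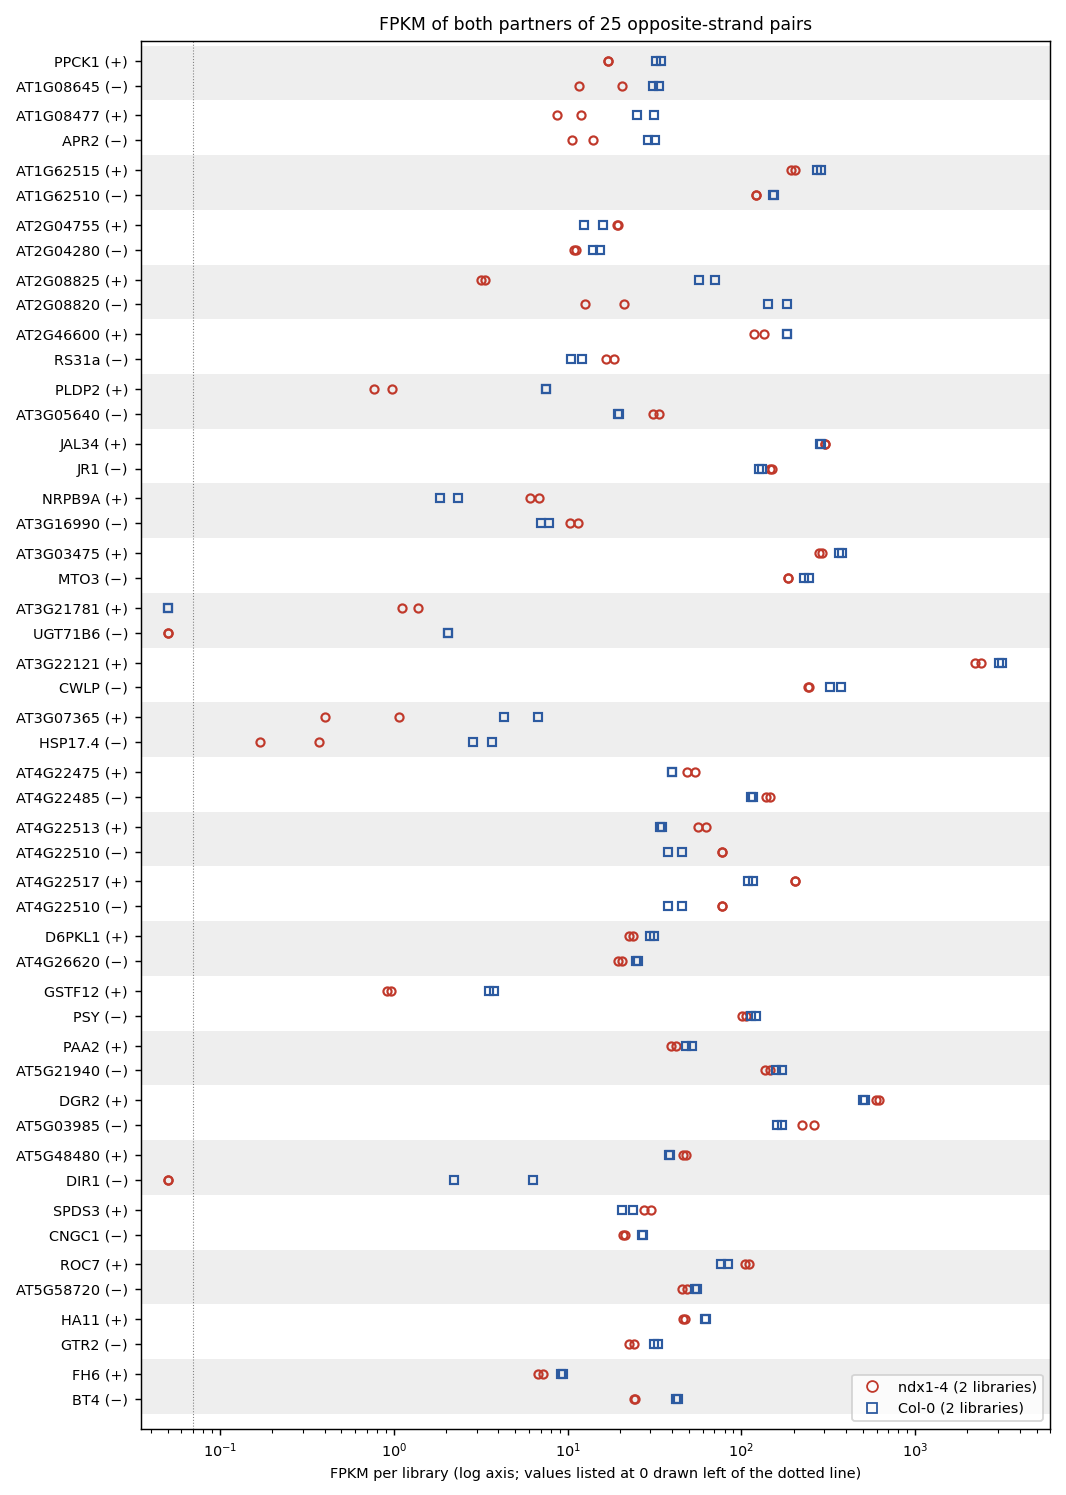
FPKM (x axis, log scale) of both partners of each of the 25 pairs in every library, with ndx1-4 as red circles and Col-0 as blue squares (2 libraries each) and with pairs set apart by shading. In every gene the 2 ndx1-4 libraries sit on one side of the 2 Col-0 libraries, and AT3G21781, UGT71B6 and DIR1 have a genotype at 0, drawn left of the dotted line.

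The partners of 18 pairs differed in the same direction between the genotypes, 6 with both partners higher in ndx1-4 and 12 with both lower. The partners of the other 7 pairs differed in opposite directions, and median-ratio scaling over the listed genes gave 17 pairs of like and 8 of opposite direction. Under that scaling the lower partner lost its call in 3 of the 7 opposite pairs, with AT2G04280 at -0.20 (limma adjusted p = 0.0344), CNGC1 at -0.15 (0.0288) and AT5G58720 at -0.028 (0.577). Same direction held in 7 of 11 tail-to-tail pairs, 3 of 3 head-to-head pairs and 8 of 11 nested pairs. It held in 5 of 7 pairs of a coding and a noncoding gene and in 12 of 17 pairs of coding genes. These counts are a description with no test, and each pair is given below with its values.

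Each partner was at 0 in a different genotype at the locus of UGT71B6 (AT3G21780), a glucosyltransferase that acts on the hormone abscisic acid, and the noncoding gene AT3G21781, which has the same interval on the plus strand (chr3:7674904-7676519, 1616 shared bases). UGT71B6 was listed at 0 FPKM in both ndx1-4 libraries, against 2.04 and 2.06 FPKM in Col-0. AT3G21781 had 1.38 and 1.11 FPKM in ndx1-4, and was listed at 0 FPKM in both Col-0 libraries. Both libraries of a genotype showed the same partner at 0. The differences were -1.61 ± 0.11 for UGT71B6 (limma adjusted p = 8.93e-06) and 1.16 ± 0.13 for AT3G21781 (limma adjusted p = 7.09e-05), and no fold is given against a genotype at 0. All 50-base windows (the read length in the labels) of each transcript were also in the other, so no window told the partners apart. Summed over both genes, the locus had 1.38 and 1.11 FPKM in ndx1-4, against 2.04 and 2.06 FPKM in Col-0. The mean of AT3G21781 over the 4 libraries, 0.623 FPKM, was below the minimum of 1 FPKM used as an alternative setting.

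DIR1 (AT5G48485, chr5:19646028-19646840), a lipid-transfer protein of systemic acquired resistance, lies whole within the glyoxalase family gene AT5G48480 (chr5:19644539-19646840). It was listed at 0 FPKM in both ndx1-4 libraries, against 6.29 and 2.22 FPKM in Col-0, so that the Col-0 libraries also stood apart from each other. AT5G48480 had 48.23 and 46.11 FPKM in ndx1-4, against 38.70 and 38.34 FPKM in Col-0, 1.22-fold higher. The differences were -2.28 ± 0.33 for DIR1 (limma adjusted p = 0.000278) and 0.29 ± 0.04 for AT5G48480 (limma adjusted p = 0.00038), in opposite directions. Every window of DIR1 was also in AT5G48480, and 40.0% of the windows of AT5G48480 were in DIR1. The summed level of the locus was 48.23 and 46.11 FPKM in ndx1-4, against 44.99 and 40.56 FPKM in Col-0.

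Another locus of opposite change held AT2G04280 (chr2:1480068-1482089), a calcium ion-binding protein gene, and the noncoding gene AT2G04755 (chr2:1480219-1482007) within it. AT2G04280 had 10.93 and 11.18 FPKM in ndx1-4, against 15.43 and 14.00 FPKM in Col-0. AT2G04755 had 19.55 and 19.18 FPKM in ndx1-4, against 12.43 and 16.00 FPKM in Col-0. The noncoding partner had the higher listed FPKM in both ndx1-4 libraries, with 64.1% and 63.2% of the summed FPKM, against 44.6% and 53.3% in Col-0. The differences were -0.38 ± 0.07 for AT2G04280 (limma adjusted p = 0.00139) and 0.43 ± 0.11 for AT2G04755 (limma adjusted p = 0.00463). Without Col-0 replicate 1 the difference of AT2G04755 was 0.26, and without Col-0 replicate 2 it was 0.60. Without a variance trend AT2G04755 lost its call (limma adjusted p = 0.0243), while AT2G04280 kept it (limma adjusted p = 0.00376). The summed level, 30.48 and 30.36 FPKM in ndx1-4 against 27.86 and 30.00 FPKM in Col-0, lay close together in the 4 libraries. The noncoding gene covers 1707 coding bases of AT2G04280, and 23.8% of the windows of AT2G04280 and 18.3% of those of AT2G04755 were also found in an annotated gene outside the pair.

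The remaining 5 noncoding genes that lie opposite a coding gene changed in the direction of their partner. AT1G08477 lies within APR2 (AT1G62180), an adenylylphosphosulfate reductase of sulphate assimilation (chr1:22975698-22976479). APR2 had 10.59 and 14.08 FPKM in ndx1-4, against 31.94 and 29.00 FPKM in Col-0, 2.47-fold lower. AT1G08477 had 11.91 and 8.72 FPKM in ndx1-4, against 25.11 and 31.42 FPKM in Col-0, 2.74-fold lower. The fitted differences were -1.25 ± 0.12 for APR2 and -1.38 ± 0.15 for AT1G08477, and neither partner was the higher one in all libraries. All windows of AT1G08477 (100%) were also in APR2, and 36.0% of those of APR2 were in AT1G08477. Of the windows of APR2, 8.64% were also in an annotated gene outside the pair.

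HSP17.4 (AT3G46230), a small heat shock protein, had 0.37 and 0.17 FPKM in ndx1-4, against 2.87 and 3.66 FPKM in Col-0, 12.1-fold lower. The noncoding gene AT3G07365, which lies within it (chr3:16984335-16984787), had 1.07 and 0.40 FPKM in ndx1-4, against 4.32 and 6.79 FPKM in Col-0, 7.56-fold lower. The antisense partner was listed with the higher FPKM in all 4 libraries, but all of its windows (100%) and 59.9% of those of HSP17.4 were shared, and the highest of these values was 6.79 FPKM. Without ndx1-4 replicate 1 the folds were 19.2 for HSP17.4 and 13.9 for AT3G07365, and without ndx1-4 replicate 2 they were 8.82 and 5.19. AT3G07365 lost its call in each of the 4 fits with a library left out. The fitted differences were -1.75 ± 0.14 for HSP17.4 and -1.92 ± 0.23 for AT3G07365, on a scale that understates changes of such low genes.

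CWLP (AT3G22120), a proline-rich protein linking cell wall and plasma membrane, lies opposite AT3G22121, the gene with the highest listed FPKM of the 49. AT3G22121 had 2217.93 and 2389.96 FPKM in ndx1-4, against 3150.34 and 3032.02 FPKM in Col-0. CWLP had 244.75 and 242.79 FPKM in ndx1-4, against 374.18 and 323.95 FPKM in Col-0. The annotated noncoding RNA was given 90.1% and 90.8% of the summed FPKM in ndx1-4, against 89.4% and 90.3% in Col-0, and the share overlapped between the genotypes. The fitted differences were -0.42 ± 0.04 for AT3G22121 and -0.51 ± 0.06 for CWLP, with 96.5% of the windows of AT3G22121 shared with CWLP.

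MTO3 (AT3G17390), an S-adenosylmethionine synthetase, had 184.95 and 186.27 FPKM in ndx1-4, against 229.65 and 245.27 FPKM in Col-0. Its noncoding partner AT3G03475 (chr3:5953031-5953921) had 292.60 and 281.40 FPKM in ndx1-4, against 380.98 and 366.12 FPKM in Col-0. The noncoding gene was listed with the higher FPKM in every library, with 64.4% of its windows in MTO3, and the partners changed by nearly the same amount, with differences of -0.35 ± 0.04 for MTO3 and -0.38 ± 0.03 for AT3G03475.

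DGR2 (AT5G25460), a DUF642 protein of the cell wall, met the noncoding AT5G03985 head to head (chr5:8863224-8864418), and this was the only pair of a coding and a noncoding gene with both partners higher in ndx1-4. DGR2 had 622.33 and 597.56 FPKM in ndx1-4, against 513.87 and 497.88 FPKM in Col-0. AT5G03985 had 224.79 and 261.79 FPKM in ndx1-4, against 160.70 and 171.30 FPKM in Col-0. The noncoding partner was 1.47-fold higher and DGR2 1.21-fold, and the noncoding share of the summed FPKM was 26.5% and 30.5% in ndx1-4, against 23.8% and 25.6% in Col-0. Of the windows of AT5G03985, 50.6% were also in DGR2, so these shares rest on a division of reads that was not tested.

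The pair of noncoding genes on chromosome 2 held the largest fitted difference of the set with a pseudocount of 1, while with 0.1 DIR1 (-5.27) and UGT71B6 (-4.43) exceeded AT2G08825 (-4.24). AT2G08825 (chr2:15403296-15403618) had 3.37 and 3.18 FPKM in ndx1-4, against 57.36 and 70.56 FPKM in Col-0, 19.5-fold lower (difference -3.92 ± 0.10, limma adjusted p = 4.43e-08). AT2G08820 (chr2:15403144-15403901), which contains it, had 21.13 and 12.66 FPKM in ndx1-4, against 183.65 and 141.86 FPKM in Col-0, 9.63-fold lower (difference -3.22 ± 0.21, limma adjusted p = 5.45e-06). Though the intervals share 323 bases, only 13 exon bases are common to both, and no 50-base window of either transcript was in the other. The genes thus fell together without a stretch as long as a read in common.

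In 5 pairs of coding genes, the annotation reads protein from both strands of the same bases. PPCK1 (AT1G08650), the kinase that phosphorylates phosphoenolpyruvate carboxylase, and the uncharacterized AT1G08645 meet head to head with 345 bases coding on both strands (chr1:2752124-2752595). PPCK1 had 17.15 and 17.16 FPKM in ndx1-4, against 34.46 and 32.08 FPKM in Col-0, 1.94-fold lower (difference -0.92 ± 0.06). AT1G08645 had 20.53 and 11.67 FPKM in ndx1-4, against 30.92 and 33.57 FPKM in Col-0, a difference of -1.01 ± 0.21, or -0.63 without ndx1-4 replicate 2. The ndx1-4 libraries were alike for PPCK1 and unlike for its partner, so the share of PPCK1 overlapped between the genotypes. Of the windows of AT1G08645, 78.2% were also in PPCK1, and 19.0% of those of PPCK1 were in AT1G08645.

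AT1G62510, of the lipid-transfer and seed storage albumin family, and the uncharacterized AT1G62515 share their 5′ ends (chr1:23136720-23137254). AT1G62510 had 122.23 and 121.81 FPKM in ndx1-4, against 151.65 and 154.26 FPKM in Col-0, a difference of -0.32 ± 0.03. AT1G62515 had 203.98 and 193.79 FPKM in ndx1-4, against 270.90 and 288.91 FPKM in Col-0, a difference of -0.49 ± 0.04. Both fell, and the uncharacterized gene was listed with the higher FPKM in all 4 libraries. Of the windows of AT1G62515, 84.5% were also in AT1G62510, and 41.0% of those of AT1G62510 were in AT1G62515. The order of the partners thus rests on a division of reads that was not tested.

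A cluster on chromosome 4 held 3 genes of the same lipid-transfer family opposite 2 uncharacterized genes, and all 5 genes were higher in ndx1-4. AT4G22485 had 146.74 and 137.91 FPKM in ndx1-4, against 117.20 and 113.88 FPKM in Col-0, a difference of 0.30 ± 0.04. AT4G22475, which surrounds it with 1971 shared bases, the longest stretch of the set (chr4:11844506-11846476), had 48.72 and 54.42 FPKM in ndx1-4, against 39.77 and 39.69 FPKM in Col-0, a difference of 0.37 ± 0.06. Of their bases, 1698 code for protein on both strands. Of the windows of AT4G22475, 78.8% were also in AT4G22485, and 90.3% of those of AT4G22485 were in AT4G22475. The gene AT4G22510 (chr4:11854796-11857417) spans both AT4G22513 and AT4G22517 and so enters 2 pairs. AT4G22510 had 77.75 and 76.93 FPKM in ndx1-4, against 45.72 and 37.68 FPKM in Col-0, 1.85-fold higher. AT4G22513 had 62.49 and 56.63 FPKM in ndx1-4, against 34.08 and 35.05 FPKM in Col-0, 1.72-fold higher. AT4G22517 had 203.50 and 202.53 FPKM in ndx1-4, against 108.50 and 116.86 FPKM in Col-0, 1.80-fold higher. The 3 genes thus rose by similar folds at different levels. Of the windows of AT4G22510, 89.2% were also in its partners.

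**Figure D2:**
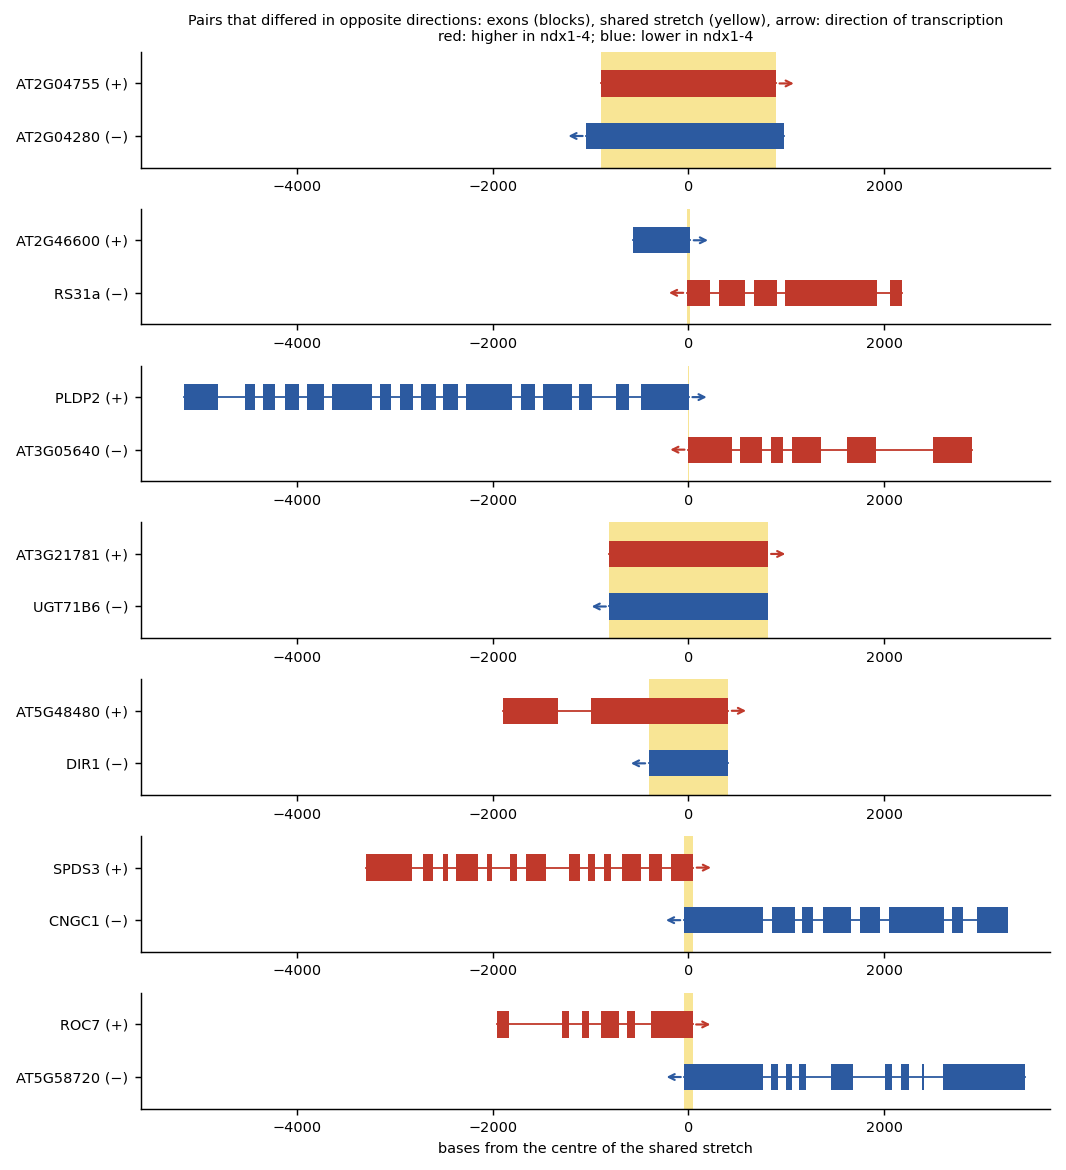
Exons (blocks) of the 7 pairs that differed in opposite directions, placed by distance in bases from the centre of the shared stretch (yellow), with red for genes higher and blue for genes lower in ndx1-4 and arrows for the direction of transcription. The shared stretch covers most or all of at least 1 partner in the AT2G04755, AT3G21781 and DIR1 pairs, and only the 3′ tips, 8 to 96 bases, in the other 4.

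The other 4 pairs of opposite change met tail to tail and shared 96 bases or fewer, none of them coding. PLDP2 (AT3G05630, chr3:1635194-1640357), a phospholipase D that takes part in lipid remodelling under phosphate shortage, and the protein phosphatase 2C gene AT3G05640 (chr3:1640350-1643253) share 8 bases. PLDP2 had 0.77 and 0.98 FPKM in ndx1-4, against 7.48 and 7.49 FPKM in Col-0, 8.55-fold lower (difference -2.18 ± 0.11, limma adjusted p = 1.24e-06). AT3G05640 had 33.72 and 31.13 FPKM in ndx1-4, against 19.72 and 19.61 FPKM in Col-0, 1.65-fold higher (difference 0.69 ± 0.06, limma adjusted p = 1.95e-05). The Col-0 libraries lay close together in both genes and the ndx1-4 libraries less so, with PLDP2 under 1 FPKM in ndx1-4. No 50-base window was common to the genes, so reads within either gene differ in sequence from the partner.

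RS31a (AT2G46610, chr2:19136566-19138762), an SR-type splicing factor, and the EF-hand calcium-binding protein gene AT2G46600 (chr2:19136019-19136600) share 35 bases and no window. RS31a had 16.65 and 18.39 FPKM in ndx1-4, against 12.10 and 10.49 FPKM in Col-0, a difference of 0.59 ± 0.09. AT2G46600 had 134.80 and 118.98 FPKM in ndx1-4, against 183.88 and 183.69 FPKM in Col-0, a difference of -0.53 ± 0.05. The lower-level partner was the one that rose. Of the windows of RS31a, 24.0% were also in an annotated gene outside the pair, and of those of AT2G46600, 9.38% were.

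SPDS3 (AT5G53120, chr5:21534473-21537816), annotated as a spermidine synthase, had 30.13 and 27.52 FPKM in ndx1-4, against 23.90 and 20.52 FPKM in Col-0, a difference of 0.36 ± 0.08. CNGC1 (AT5G53130, chr5:21537721-21541029), a cyclic nucleotide gated channel, had 21.54 and 20.93 FPKM in ndx1-4, against 27.22 and 26.82 FPKM in Col-0, a difference of -0.33 ± 0.05. The order of the partners turned round, SPDS3 having 58.3% and 56.8% of the summed FPKM in ndx1-4, against 46.8% and 43.3% in Col-0. ROC7 (AT5G58710, chr5:23717775-23719778), a cyclophilin, had 110.60 and 104.72 FPKM in ndx1-4, against 76.86 and 83.35 FPKM in Col-0, a difference of 0.42 ± 0.05. AT5G58720 (chr5:23719695-23723175), which encodes an Smr domain protein, had 48.49 and 45.35 FPKM in ndx1-4, against 55.53 and 53.79 FPKM in Col-0, a difference of -0.22 ± 0.05. In both pairs the changes were under 1.5-fold, and at most 3.83% of the windows of any of these 4 genes were in the partner.

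Both partners fell in 5 of the 7 tail-to-tail pairs of like direction. Under median-ratio scaling PSY turned, and 5 other genes of these pairs lost their call: D6PKL1 at -0.20 (limma adjusted p = 0.0107), FH6 at -0.20 (0.04998), AT4G26620 at -0.13 (0.0707), PAA2 at -0.099 (0.110) and AT5G21940 at -0.020 (0.694). BT4 (AT5G67480), a BTB and TAZ domain protein, had 24.00 and 24.59 FPKM in ndx1-4, against 42.20 and 43.35 FPKM in Col-0, 1.76-fold lower (difference -0.79 ± 0.05). FH6 (AT5G67470), a formin that nucleates actin and shares 18 bases with BT4 (chr5:26930539-26930556), had 7.18 and 6.77 FPKM in ndx1-4, against 9.16 and 9.41 FPKM in Col-0 (difference -0.37 ± 0.08). GSTF12 (AT5G17220), a glutathione S-transferase of anthocyanin accumulation, had 0.97 and 0.92 FPKM in ndx1-4, against 3.78 and 3.51 FPKM in Col-0, 3.86-fold lower (difference -1.26 ± 0.11). It overlaps PSY (AT5G17230), the phytoene synthase of carotenoid synthesis, by 108 bases (chr5:5659554-5659661). PSY had 106.74 and 101.51 FPKM in ndx1-4, against 120.90 and 113.08 FPKM in Col-0, a difference of -0.17 ± 0.04 that turned to 0.024 when the libraries were scaled by the median ratio over the listed genes. The partners were unlike in size of change and far apart in level in every library.

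HA11 (AT5G62670), a plasma membrane proton pump, had 45.87 and 47.52 FPKM in ndx1-4, against 61.64 and 62.95 FPKM in Col-0, a difference of -0.41 ± 0.04. GTR2 (AT5G62680), a glucosinolate transporter that shares 73 bases with it (chr5:25165137-25165209), had 24.02 and 22.67 FPKM in ndx1-4, against 31.35 and 33.04 FPKM in Col-0, a difference of -0.45 ± 0.06. With 1.03% of the windows of GTR2 and 0.74% of those of HA11 in the partner, these genes fell by almost the same amount. D6PKL1 (AT4G26610), a kinase that activates auxin efflux carriers, had 22.68 and 23.67 FPKM in ndx1-4, against 31.38 and 29.67 FPKM in Col-0, a difference of -0.38 ± 0.06. AT4G26620, a sucrase/ferredoxin-like gene sharing 374 bases with it (chr4:13427029-13427402), had 19.58 and 20.66 FPKM in ndx1-4, against 24.85 and 25.54 FPKM in Col-0, a difference of -0.31 ± 0.06. The partners were also close in level. PAA2 (AT5G21930), a copper-transporting ATPase of the chloroplast, had 42.10 and 39.47 FPKM in ndx1-4, against 51.75 and 48.22 FPKM in Col-0, a difference of -0.29 ± 0.05. AT5G21940, which shares 157 bases with it (chr5:7249014-7249170), had 137.13 and 146.74 FPKM in ndx1-4, against 170.43 and 158.42 FPKM in Col-0, a difference of -0.21 ± 0.05.

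Both partners rose in the other 2 tail-to-tail pairs. NRPB9A (AT3G16980), a subunit of RNA polymerase II, had 6.06 and 6.89 FPKM in ndx1-4, against 2.33 and 1.85 FPKM in Col-0, 3.10-fold higher (difference 1.28 ± 0.12, limma adjusted p = 3.11e-05). AT3G16990, a heme oxygenase-like gene whose interval shares 705 bases with it (chr3:5795123-5795827), had 11.48 and 10.29 FPKM in ndx1-4, against 7.84 and 7.03 FPKM in Col-0, 1.46-fold higher. The fold was larger for NRPB9A, and its share of the summed FPKM was 34.5% and 40.1% in ndx1-4, against 22.9% and 20.8% in Col-0. Of the windows of NRPB9A, 49.6% were also in AT3G16990, and 18.0% of those of AT3G16990 were in NRPB9A. The shares thus rest on a division of reads that was not tested. JAL34 (AT3G16460) and JR1 (AT3G16470), mannose-binding lectins of the jacalin family that share 631 bases (chr3:5595282-5595912), were also both higher, JAL34 with the smallest fitted difference of the 49 genes on the deposited scale (0.28 under median-ratio scaling, where AT5G21940 had the smallest). JAL34 had 301.26 and 304.03 FPKM in ndx1-4, against 282.71 and 286.19 FPKM in Col-0 (difference 0.09 ± 0.02, limma adjusted p = 0.00737). JR1 had 147.02 and 149.82 FPKM in ndx1-4, against 126.69 and 130.98 FPKM in Col-0 (difference 0.20 ± 0.03).

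**Figure D3:**
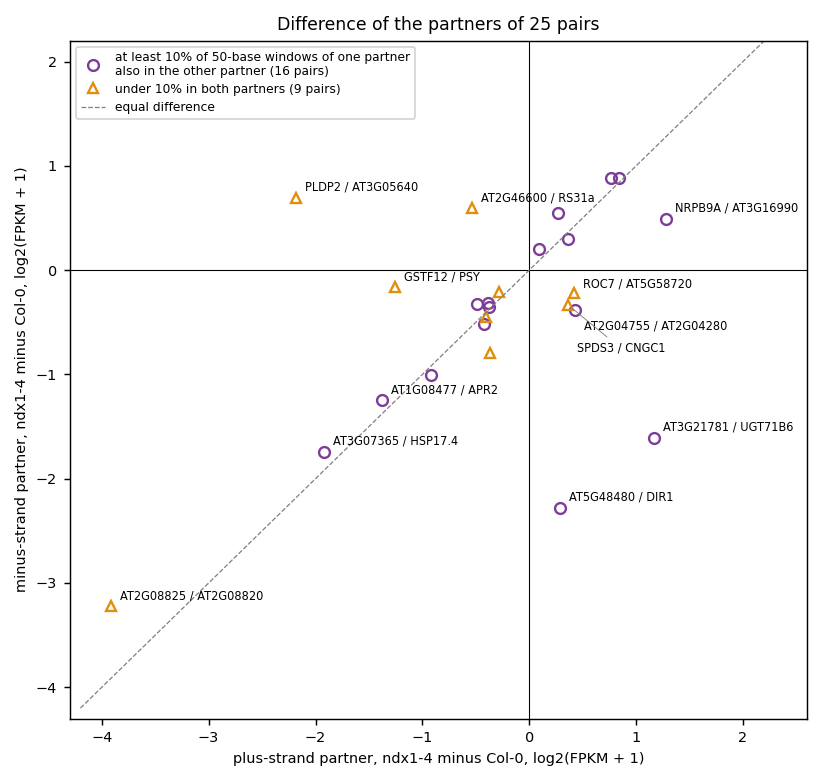
Difference between ndx1-4 and Col-0 (log2(FPKM + 1), from limma) of the plus-strand partner (x axis) against the minus-strand partner (y axis) for 25 pairs, as purple circles where at least 10% of the 50-base windows of a partner are also in the other (16 pairs) and orange triangles elsewhere (9 pairs). Most circles lie near the dashed line of equal difference, with the AT2G04755, AT3G21781 and DIR1 pairs as the circles of opposite change.

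The gap between the changes of the partners was set beside the sequence they share. In the 16 pairs with at least 10% of the windows of a partner in the other, the partners' differences were apart by a median of 0.12 (log2, from 0.026 to 2.77), and 13 of 16 pairs changed in the same direction. In the 11 of these with at least 75% it was 0.13, with 8 of 11 in the same direction, so neither value went further with more shared sequence. In the 9 pairs with under 10% of the windows of either partner in the other, the median was 0.69 (from 0.039 to 2.87), with 5 of 9 in the same direction. In the 4 pairs that shared no window it was 0.91, with 2 pairs in each class. A wide gap beside full sharing was found for the pairs of AT3G21781 with UGT71B6, AT5G48480 with DIR1 and AT2G04755 with AT2G04280, in which 100% of the windows of a partner were shared and the partners still changed in opposite directions. The amount of shared sequence sets how far reads of the partners can be told apart in these libraries, and its part in the like or unlike changes was not tested.

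As a setting for these counts, neighbouring listed genes that did not overlap (next listed gene on the chromosome, at most 5 kb away) were counted in the same way. Of 25 overlapping pairs, 72.0% changed in the same direction, beside 60.2% of 93 neighbour pairs on opposite strands and 67.9% of 165 neighbour pairs on the same strand. Tail-to-tail neighbours did so in 49.0% of 49 pairs and head-to-head neighbours in 72.7% of 44 pairs. The partners' differences were apart by a median of 0.17 in overlapping pairs, 0.54 in opposite-strand neighbours and 0.51 in same-strand neighbours. Within the overlapping pairs the median was 0.12 in the 16 with at least 10% of the windows of a partner shared. It was 0.69 in the 9 under that share, and the part of shared sequence in the pooled value was not tested. These shares carry no test.

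In 22 of 25 pairs the same partner had the higher mean FPKM in both genotypes. The order of the means turned in the pairs of AT2G04755 with AT2G04280, AT3G21781 with UGT71B6 and SPDS3 with CNGC1. In the first of these the Col-0 libraries were split, with AT2G04755 at 44.6% of the summed FPKM in replicate 1 and 53.3% in replicate 2. A noncoding gene was listed with the higher FPKM in both genotypes in 3 of the 7 pairs of a coding and a noncoding gene, AT3G22121, AT3G03475 and AT3G07365. Their windows were shared with the coding partner to 96.5%, 64.4% and 100%, in that order, so these orders rest on a division of reads that was not tested. The share that 1 partner took of the summed FPKM did not overlap between the genotypes in 16 pairs and overlapped in 9. No matching count is given for neighbouring listed genes, and all these genes were listed because they differed in the same libraries. The counts of 16 and 9 are therefore a description and say nothing particular about overlapping genes.

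**Figure D4:**
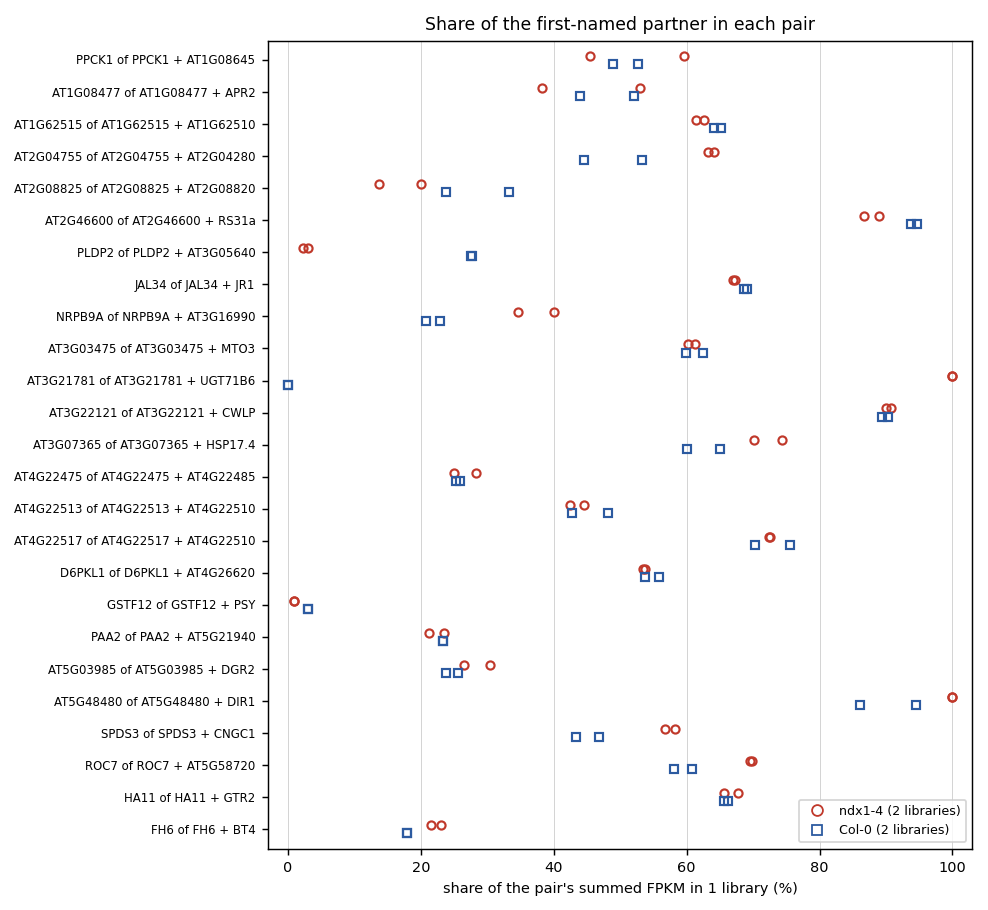
Share of the summed FPKM of a pair (x axis, percent) taken by the first-named partner in each of the 2 ndx1-4 libraries (red circles) and 2 Col-0 libraries (blue squares). The shares are at 100% in ndx1-4 and 0% in Col-0 for AT3G21781, and in 9 pairs they overlap between the genotypes.

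None of the 22 listed genes of RNA silencing and RNA 3′ end processing (among them DCL1 to DCL4, RDR2, RDR6, AGO1, FCA, FPA and XRN3) was in the deposited table, so they were not analysed here. Markers of tissues were checked in the same libraries. All 5 seed markers (CRU1, CRU2, CRU3, SESA1 and OLEO1) were lower in ndx1-4, with a summed level of 49.39 to 56.58 FPKM in ndx1-4, against 744.87 to 776.08 FPKM in Col-0, and none was at 0. Of the 3 flower markers, PI was in the table, with 22.49 and 18.15 FPKM in ndx1-4, against 0.91 and 0.59 FPKM in Col-0. Of the 4 root markers, PYK10 was in the table, with 1913.28 and 1936.64 FPKM in ndx1-4, against 1780.90 and 1823.25 FPKM in Col-0, and none of the 6 markers of green seedling tissue was in it, so the tissue label could not be checked from its own markers. The part of these differences in the changes of the overlapping genes was not tested.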

How the data were processed

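mRNA-seq of 2 ndx1-4 and 2 Col-0 seedling libraries was used, grouped by title. Per the methods, the authors quantified reads against Araport11 transcripts with Salmon and called genes with DESeq2. The deposited table gives FPKM of called genes alone, with comma separators that were removed. Its fold changes and adjusted p-values, the authors' own comparison, were not used, nor was the transposable element table. The methods list counts beside FPKM for this table, but the columns analysed here hold FPKM alone, so depth is unknown and no counting interval is given. Positions of all 1984 genes matched RefSeq TAIR10.1, which gave exons, names and sequences.

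All listed genes were tested on log2(FPKM + 1) in limma 3.58.1 under R 4.3.3, allowing a variance trend, with no covariates, Benjamini-Hochberg adjustment and a threshold of 0.01. Differences are ndx1-4 minus Col-0 on that scale, which understates changes of low genes, with standard errors. The script was tested on simulated data. Shared sequence was the share of a gene's 50-base transcript windows present in the partner's transcripts on either strand. Every pair was named, by rule. Members and lists were chosen with earlier results of these data known. Alternatives were a pseudocount of 0.1, a minimum of 1 FPKM, each library left out, a replicate block, no trend, median-ratio scaling, adjustment over all annotated genes, and stricter definitions of overlap.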

Additional observations from a re-analysis of the deposited data

How the results depend on the processing

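The 18 like and 7 opposite pairs kept these counts with a pseudocount of 0.1, without a variance trend and with any library left out. These counts could not have come out otherwise. The genotypes did not overlap in any of the 49 genes, so neither a new pseudocount nor a left-out library can turn a direction. The variance trend does not enter the differences. The split was therefore not tested by these settings. Leaving out a library gave 18 to 23 genes called, 5 to 8 of them higher and 13 to 16 lower. A minimum mean of 1 FPKM kept 48 of the 49 calls, 17 higher and 31 lower. It left 18 like and 6 opposite pairs, because AT3G21781 fell below the minimum and its pair with UGT71B6 was lost. A fold of at least 1.5 in mean FPKM kept 20 of the 49 calls, 7 higher and 13 lower. A shared stretch of at least 10% of the shorter gene kept 17 pairs, 3 of them opposite. Median-ratio scaling, which centres a list of called genes, moved the median difference of all listed genes by 0.19 (log2) and turned PSY to 0.024 (limma adjusted p = 0.604), which made 17 pairs of like and 8 of opposite direction. Under it 45.0% of the called overlapping genes were higher, beside 36.7%, and 58.7% of all called listed genes, beside 43.5%. Same-numbered libraries did not deviate together (correlation 0.028 over 1478 genes), and the replicate block left 49 genes called with 18 higher. Of the 49 genes, 40 were called under median-ratio scaling (18 higher, 22 lower), 42 without a variance trend (15 and 27) and 37 with adjustment over all annotated genes (14 and 23). The share of all listed genes called under these settings is not given, so these counts say nothing particular about the overlapping genes. Over 10 settings, 359 of 499 single differences kept their call, 139 lost it and 1 turned. With 2 libraries per genotype and no depth, small changes rest on few values.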
